A study of Mus musculus with 6 samples.

Results

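E2F factors, pocket proteins and MYB factors form the transcriptional switch that lets a cell enter the division cycle. The genes described here were E2f1, E2f2, E2f3, E2f7, E2f8, Rb1, Rbl1, Rbl2, Mybl1 and Mybl2. They were chosen by symbol, with earlier results of these data known. All 10 were found among the 24964 genes of the deposited table, and all 10 passed the minimum used for testing, a mean of 1 FPKM over the 6 samples. FPKM is an expression level scaled to gene length and to sequencing depth. RNA-seq was made from uterine luminal epithelium, the sheet of cells that lines the uterine cavity, which was cut out by laser capture on day 4 of pregnancy after mating with stud males. The Foxo1dd group held 3 samples from Pgrcre/+Foxo1f/f females. These carry floxed alleles of Foxo1, a forkhead transcription factor, and 1 copy of a Cre recombinase gene placed at Pgr, the progesterone receptor gene. The Foxo1ff group held 3 samples from Foxo1f/f females, which carry the floxed alleles without Cre. Females of both groups had been housed with female littermates until 8 weeks of age. Pgrcre acts in every cell type that expresses or has expressed Pgr, so the deletion is not limited to the captured cells, and the groups differ in the Pgr locus as well as in Foxo1. The labels call the samples bioreplicates and do not say how many animals stand behind each. The p-values therefore reflect sample-to-sample spread, part of which may be technical.

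In textbook accounts, E2F1, E2F2 and E2F3 bind DNA together with a DP partner and switch on genes for DNA replication. The pocket protein RB, encoded by Rb1, holds these activators in check until cyclin-dependent kinases phosphorylate it. The related pocket proteins p107 (Rbl1) and p130 (Rbl2) pair mainly with the repressor E2Fs, and in resting cells p130 joins the MuvB proteins in the DREAM complex, which silences cell-cycle genes. In dividing cells MuvB instead binds B-MYB (Mybl2) and then FOXM1, and the genes of mitosis are switched on. E2F7 and E2F8 are atypical E2Fs that bind DNA without a DP partner and repress E2F targets late in the cycle. The epithelium of the mouse uterus is known to divide under estrogen early in pregnancy and to stop dividing under progesterone before embryos attach.

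Several of these genes are themselves known E2F targets. Shown first are promoter letters of E2f3, E2f7 and Rbl1, which fell and match the E2F consensus before the start site. Those of Rbl2, the member that rose, are set beside them. This choice follows the match: E2f8 and Mybl2 also fell, had no match and are not printed. Whether the letters go with the changes was not tested. Each window holds the 250 bases before the RefSeq start site (GRCm38.p6), written 5′ to 3′ on the gene's own strand. Capitals mark the E2F consensus, searched on both strands as TTTCCCGC, TTTCGCGC, TTTGCCGC or TTTGGCGC. The windows are chr13:29986064-29986313 (minus strand) for E2f3, chr10:110745189-110745438 (plus strand) for E2f7, chr2:157204535-157204784 (minus strand) for Rbl1 and chr8:91069807-91070056 (plus strand) for Rbl2.
E2f3: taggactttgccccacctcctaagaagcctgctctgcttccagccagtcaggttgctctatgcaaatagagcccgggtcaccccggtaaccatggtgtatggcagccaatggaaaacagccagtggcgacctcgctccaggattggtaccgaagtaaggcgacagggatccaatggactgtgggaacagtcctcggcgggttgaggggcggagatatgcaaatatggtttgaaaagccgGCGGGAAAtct
E2f7: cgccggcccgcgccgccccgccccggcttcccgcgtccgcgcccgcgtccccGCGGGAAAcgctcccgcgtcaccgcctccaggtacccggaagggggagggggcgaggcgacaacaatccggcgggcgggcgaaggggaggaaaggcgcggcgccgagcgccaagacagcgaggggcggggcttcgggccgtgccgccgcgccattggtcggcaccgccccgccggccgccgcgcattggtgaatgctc
Rbl1: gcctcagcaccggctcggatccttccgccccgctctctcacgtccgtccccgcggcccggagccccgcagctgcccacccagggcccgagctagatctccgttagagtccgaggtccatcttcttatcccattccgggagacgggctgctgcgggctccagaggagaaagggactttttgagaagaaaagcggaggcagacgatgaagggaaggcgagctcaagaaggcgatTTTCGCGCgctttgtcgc
Rbl2: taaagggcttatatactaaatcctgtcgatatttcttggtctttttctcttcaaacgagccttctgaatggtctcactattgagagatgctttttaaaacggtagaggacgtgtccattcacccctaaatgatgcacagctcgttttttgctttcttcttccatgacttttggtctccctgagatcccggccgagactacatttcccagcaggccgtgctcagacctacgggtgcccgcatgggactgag
E2f3 and E2f7 held 1 match each in the windows printed, read as GCGGGAAA and starting 11 and 198 bases before the start site, and Rbl1 held TTTCGCGC 18 bases before it. The Rbl2 window held no match to these letters. Over all 32851 promoter windows of the table, 1.86% had a match in the 250 bases before the start, so such letters are uncommon in promoters at large. Of the 10 genes, 8 had a window in the table, and E2f2 and E2f3 had a second one further inside the gene, without a match. E2f2 had its match, TTTGGCGC, 40 bases after the start at 136172274 of chromosome 4, and the windows of E2f8 and Mybl2 had none. The RefSeq start site of the E2f1 window lies 466 bases inside the gene as GENCODE draws it, and the window was not read as its promoter. The CHR element TTTGAA, a known docking sequence of MuvB, occurred 23 bases before the start of E2f3 and, read as TTCAAA, 20 bases before that of E2f8 and 201 bases before that of Rbl2. The inner window of E2f2 held it as well. It was present in 16.0% of all windows before the start. The FOXO consensus GTAAACA, present in 3.17% of all windows before the start, was found in none of the windows of the 8 genes, that of E2f1 included. At so low a share this absence is not read as a result about these genes. A match is a string of letters and does not show that a factor binds there.

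Foxo1 itself had 1.72, 0.942 and 1.22 FPKM in Foxo1dd, against 160.0, 118.5 and 110.8 FPKM in Foxo1ff, so the labels and the targeted gene go together. Pgr, at whose locus the Cre gene lies, had 36.2, 29.9 and 28.3 FPKM in Foxo1dd, against 2.44, 1.64 and 2.02 FPKM in Foxo1ff, with no overlap between the groups. The limma fit ran over the whole table on log2(FPKM + 1), and changes are given as Foxo1dd minus Foxo1ff with their standard error (SE). This scale shrinks the change of genes with low values. The Pgr log2 change was 3.42 ± 0.16 (SE, n = 3 per group, limma adjusted p = 7.45e-07), and effects of the Cre allele and of Foxo1 loss cannot be told apart in this design. Of the 10 genes, 8 fell, 1 rose and 1 was not called at an adjusted p of 0.05. Among all 11427 genes tested, 34.2% were called lower and 22.2% higher, 56.4% in all, so a call alone is common in this comparison. E2f1, E2f2, E2f7, E2f8, Mybl1 and Mybl2 averaged below 1 FPKM in Foxo1dd and passed the minimum only through Foxo1ff. A call of such a gene could hardly be other than lower. This limits each count and median of the 10 genes set beside all genes here. The 3 Foxo1dd values lay entirely outside the Foxo1ff range for 9 of the 10 genes, and for 64.2% of all genes tested (39% lower and 25.3% higher). The median change of the 10 genes was -1.71, and that of all genes tested was -0.15. Median-of-ratios scaling, which sets the libraries to a common centre, shifted the median of all genes by 0.12 and left the calls of the 10 genes as they were, beside 30% of all genes called lower and 26.9% higher under that scaling. None of the 10 genes lies on chromosome 9, which holds Pgr and the Cre insertion.

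The activators fell unequally. E2f1 (chromosome 2, 154559407 to 154569892, minus strand, mm10), the classical activator of S-phase genes, had 0.234, 0.174 and 0.068 FPKM in Foxo1dd, against 9.13, 15.7 and 12.7 FPKM in Foxo1ff. The 3 Foxo1dd samples were all close to 0 and far below the lowest Foxo1ff sample. The mean was 78.8-fold lower, and the log2 change was -3.52 ± 0.21 (SE, n = 3 per group, limma adjusted p = 2.16e-06). Only 1.09% of the genes tested had a more negative change. By the size of a single read, read from short RNA genes, these values correspond to roughly 18 to 57 reads in Foxo1dd and 2570 to 4870 reads in Foxo1ff. E2f2 (chromosome 4, 136172394 to 136196057, plus strand), an activator best known from blood cells, had 0.933, 0.687 and 1.25 FPKM in Foxo1dd, against 3.61, 6.02 and 6.12 FPKM in Foxo1ff. The groups did not overlap, and the log2 change was -1.66 ± 0.22 (SE, adjusted p = 0.000241). E2f3 (chromosome 13, 29906575 to 29986063, minus strand) makes a long and a short protein from separate start sites, which a value per gene does not resolve. It had 3.12, 2.44 and 2.46 FPKM in Foxo1dd, against 5.81, 6.98 and 7.35 FPKM in Foxo1ff. That was the mildest fall of the activators, 2.51-fold in the means, with a log2 change of -1.07 ± 0.17 (SE, adjusted p = 0.000559).

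The balance between the activators therefore differed within samples, which does not depend on how the libraries were scaled. E2f1 made up 5.46%, 5.28% and 1.80% of the summed FPKM of E2f1, E2f2 and E2f3 in Foxo1dd, against 49.2%, 54.7% and 48.5% in Foxo1ff. E2f3 made up 72.8%, 73.9% and 65.1% in Foxo1dd, against 31.3%, 24.4% and 28.1% in Foxo1ff. The leading activator transcript was thus E2f3 in each Foxo1dd sample and E2f1 in each Foxo1ff sample. The summed level of the 3 genes was 4.28, 3.30 and 3.78 FPKM in Foxo1dd, against 18.5, 28.7 and 26.2 FPKM in Foxo1ff. The log2 ratio of E2f1 to E2f3, with 0.1 FPKM added to each, was -3.47 ± 0.40 in Foxo1dd and 0.86 ± 0.26 in Foxo1ff (SD, n = 3 each). The difference was -4.33, with a two-sided exact permutation p = 0.1, the smallest that 3 against 3 samples allow (adjusted p = 0.133 over 4 ratios).

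**Figure D1:**
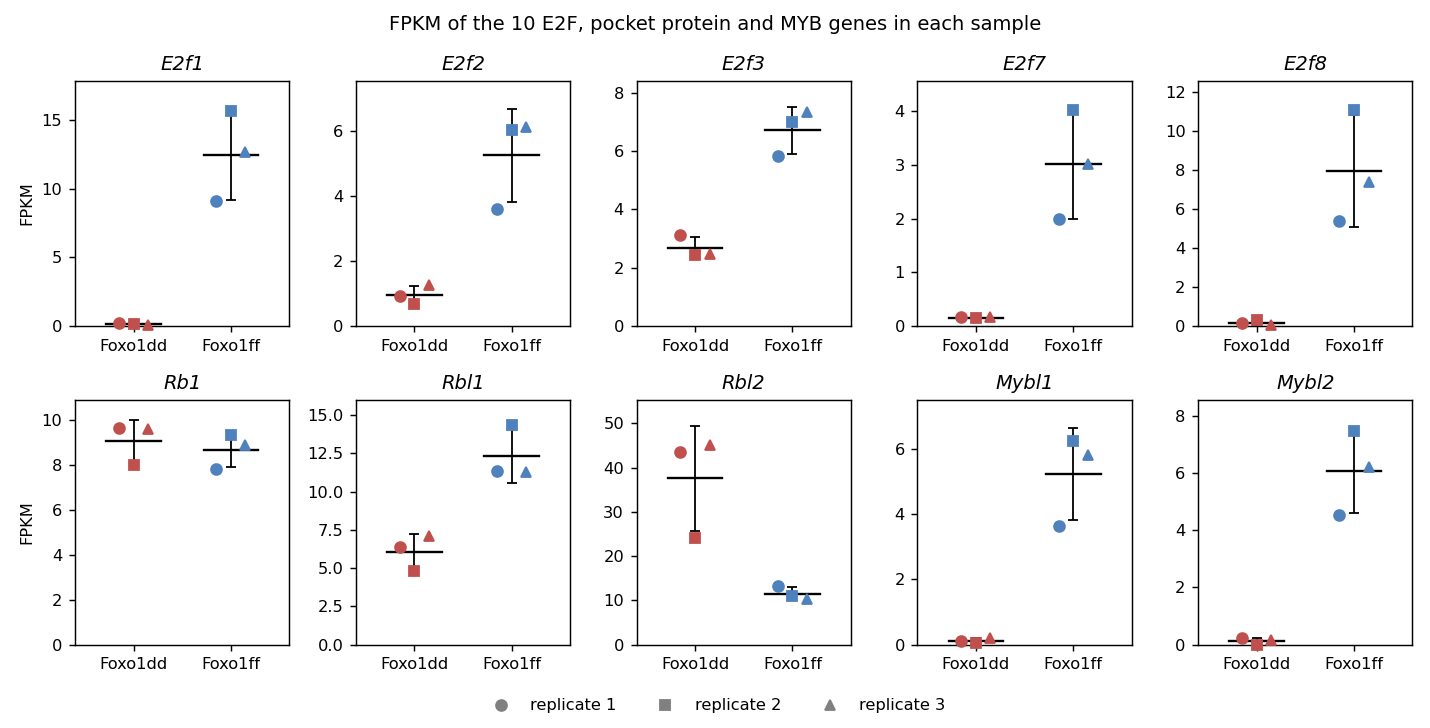
FPKM (linear axes from 0, a separate axis for each gene) of the 10 genes in the 3 Foxo1dd samples (red) and the 3 Foxo1ff samples (blue); symbols mark the replicate number, long bars the mean and whiskers 1 SD. E2f1, E2f7, E2f8, Mybl1 and Mybl2 sit near 0 in every Foxo1dd sample, Rb1 overlaps between the groups, and Rbl2 is higher in every Foxo1dd sample.

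Both atypical repressors fell as well. E2f7 (chromosome 10, 110745439 to 110787384, plus strand) had 0.164, 0.147 and 0.162 FPKM in Foxo1dd, against 1.99, 4.03 and 3.02 FPKM in Foxo1ff. Its mean was 19.1-fold lower, and its log2 change was -1.76 ± 0.23 (SE, n = 3 per group, limma adjusted p = 0.000173). E2f8 (chromosome 7, 48866429 to 48881596, minus strand), which acts in concert with E2F7, had 0.154, 0.293 and 0.049 FPKM in Foxo1dd, against 5.38, 11.1 and 7.41 FPKM in Foxo1ff. It was 48.1-fold lower in the means, with a log2 change of -2.90 ± 0.25 (SE, adjusted p = 1.53e-05). For both genes every Foxo1dd sample lay below every Foxo1ff sample, and Foxo1ff replicate 2 was the highest sample. The pair kept a steady proportion in Foxo1ff, where E2f8 was 73.0%, 73.3% and 71.1% of their summed FPKM. In Foxo1dd that share was 48.4%, 66.6% and 23.2% of summed levels of 0.318, 0.440 and 0.211 FPKM, too low for the shares to be compared closely. The log2 ratio of E2f7 and E2f8 together to the 3 activators together was -3.23 ± 0.51 in Foxo1dd and -1.19 ± 0.23 in Foxo1ff (SD, n = 3 each). The difference was -2.04, with a two-sided exact permutation p = 0.1 (adjusted p = 0.133 over 4 ratios), and it shrank to -0.74 with 1 FPKM added in place of 0.1 FPKM. E2f8 shares 610 exon bases with Gm2788 on the opposite strand, which had 0 FPKM in each Foxo1dd sample and 0.250 to 0.765 FPKM in Foxo1ff.

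The pocket proteins went in different directions. Rb1 (chromosome 14, 73183673 to 73325822, minus strand), the retinoblastoma gene, had 9.63, 8.02 and 9.60 FPKM in Foxo1dd, against 7.83, 9.33 and 8.90 FPKM in Foxo1ff. The groups overlapped, the log2 change was 0.06 ± 0.15 (SE, n = 3 per group, limma adjusted p = 0.761), and its sign turned without Foxo1ff replicate 1 (-0.0082, adjusted p = 0.969, over a range of 0.209 to 0.969 among the alternatives). Rbl1 (chromosome 2, 157145893 to 157204534, minus strand), whose p107 protein accumulates in dividing cells, had 6.37, 4.78 and 7.07 FPKM in Foxo1dd, against 11.3, 14.4 and 11.3 FPKM in Foxo1ff. Its log2 change of -0.92 ± 0.18 (SE, adjusted p = 0.00193) was the smallest of the 8 falls. Rbl2 (chromosome 8, 91070057 to 91123844, plus strand), whose p130 protein is typical of resting cells and which FOXO factors are known to induce in cultured cells, had 43.5, 24.0 and 45.1 FPKM in Foxo1dd. In Foxo1ff it had 13.2, 10.9 and 10.3 FPKM. It was the only one of the 10 genes that rose, 3.27-fold in the means, with a log2 change of 1.58 ± 0.23 (SE, adjusted p = 0.000393). Foxo1dd replicate 2 was the lowest of its group and still lay above the highest Foxo1ff sample.

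Rbl2 was the most abundant of the pocket transcripts in every Foxo1dd sample, at 73.1%, 65.2% and 73.0% of their summed FPKM, against 40.8%, 31.6% and 33.8% in Foxo1ff. Rbl1 made up 10.7%, 13.0% and 11.4% in Foxo1dd, against 35.0%, 41.4% and 37.0% in Foxo1ff. The log2 ratio of Rbl1 to Rbl2 was -2.57 ± 0.24 in Foxo1dd and 0.10 ± 0.31 in Foxo1ff (SD, n = 3 each), a difference of -2.67 with a two-sided exact permutation p = 0.1 (adjusted p = 0.133 over 4 ratios). On the opposite strand, exons of Rbl2 overlap those of Gm45464 by 892 bases and those of Aktip by 693 bases, and whether counting used strand is not given in the sources used here. Aktip had 43.6, 38.3 and 40.4 FPKM in Foxo1dd, against 44.5, 44.8 and 39.8 FPKM in Foxo1ff, with overlapping groups. Gm45464 had no row under that symbol in the deposited table. The Rbl2 level is uncertain to the extent that reads of these neighbours were counted for it. Rb1 shares 408 exon bases with Lpar6 and 488 with Rcbtb2 on the opposite strand. Lpar6 had 41.0 to 49.7 FPKM in Foxo1dd, against 31.8 to 34.4 FPKM in Foxo1ff. Rcbtb2 had 18.7 to 21.9 FPKM in Foxo1dd, against 14.7 to 16.3 FPKM in Foxo1ff. Both neighbours were thus higher in Foxo1dd, and the Rb1 level is uncertain to the extent that their reads were counted for it.

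**Figure D2:**
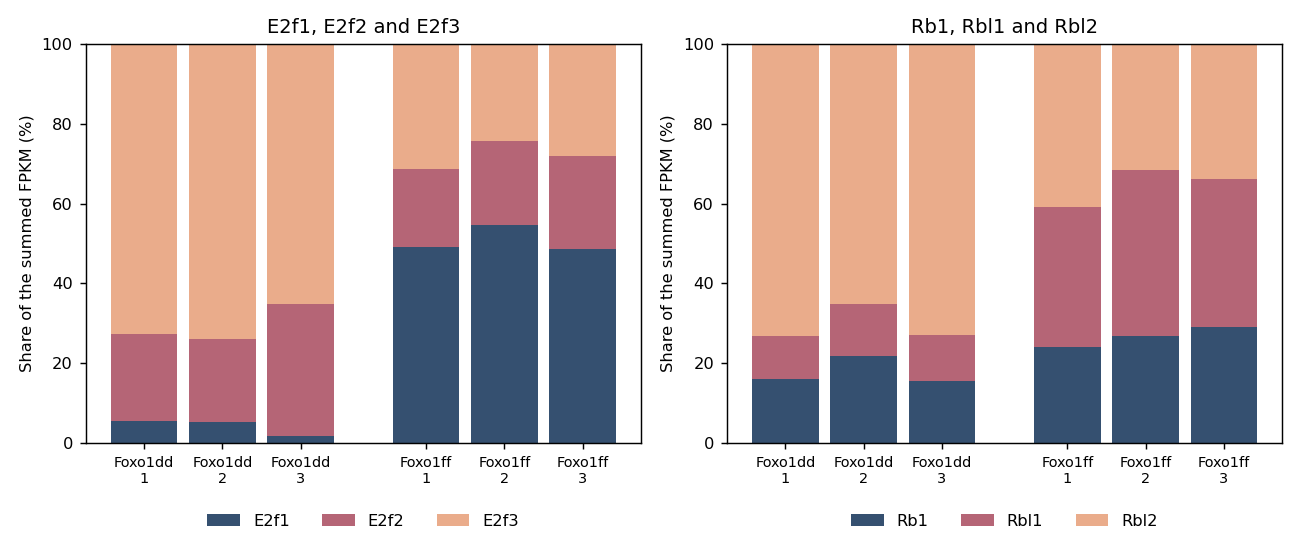
Share of the summed FPKM, in percent, taken by each of E2f1, E2f2 and E2f3 (left) and each of Rb1, Rbl1 and Rbl2 (right) in the 3 Foxo1dd and 3 Foxo1ff samples. E2f3 fills 65.1% to 73.9% of the activator bars in Foxo1dd and 24.4% to 31.3% in Foxo1ff, and Rbl2 fills 65.2% to 73.1% of the pocket protein bars in Foxo1dd and 31.6% to 40.8% in Foxo1ff.

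Both MYB genes fell to near 0. Mybl2 (chromosome 2, 163054687 to 163084688, plus strand), which encodes the B-MYB partner of MuvB, had 0.231, 0 and 0.143 FPKM in Foxo1dd, against 4.53, 7.48 and 6.22 FPKM in Foxo1ff. In Foxo1dd replicate 2 it was listed at 0, where 3 reads would be worth about 0.00876 FPKM. Its log2 change was -2.64 ± 0.21 (SE, n = 3 per group, limma adjusted p = 1.08e-05). Mybl1 (chromosome 1, 9667415 to 9700209, minus strand), which encodes A-MYB and is best known as a regulator of meiosis in male germ cells, had 0.104, 0.033 and 0.208 FPKM in Foxo1dd. In Foxo1ff it had 3.63, 6.23 and 5.81 FPKM, close to the level of Mybl2. Its mean was 45.4-fold lower, with a log2 change of -2.46 ± 0.22 (SE, adjusted p = 1.99e-05). The log2 ratio of Mybl2 to Mybl1 was -0.02 ± 0.62 in Foxo1dd and 0.22 ± 0.11 in Foxo1ff (SD, n = 3 each), with a two-sided exact permutation p = 0.4 (adjusted p = 0.4 over 4 ratios). Without Foxo1dd replicate 2 that difference was -0.04, and without Foxo1dd replicate 1 it was -0.60, against -0.24 with all 6 samples. Myb, the third gene of the family, was not called, with 3.08, 2.91 and 3.33 FPKM in Foxo1dd and 3.19, 3.48 and 3.19 FPKM in Foxo1ff (log2 change -0.06, adjusted p = 0.752). The sign of that change turned under median-of-ratios scaling (0.033) and quantile normalization (0.080).

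For genes that sit near 0 in Foxo1dd, the size of the fall on the log2 scale rests on the constant added. With 0.1 FPKM in place of 1 FPKM added, the log2 changes of E2f1, E2f8, Mybl2, Mybl1 and E2f7 were -5.63, -4.97, -4.92, -4.68 and -3.54. In bulk samples, fewer cells of a kind and less RNA per cell cannot be told apart, and this holds for each level given here.

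**Figure D3:**
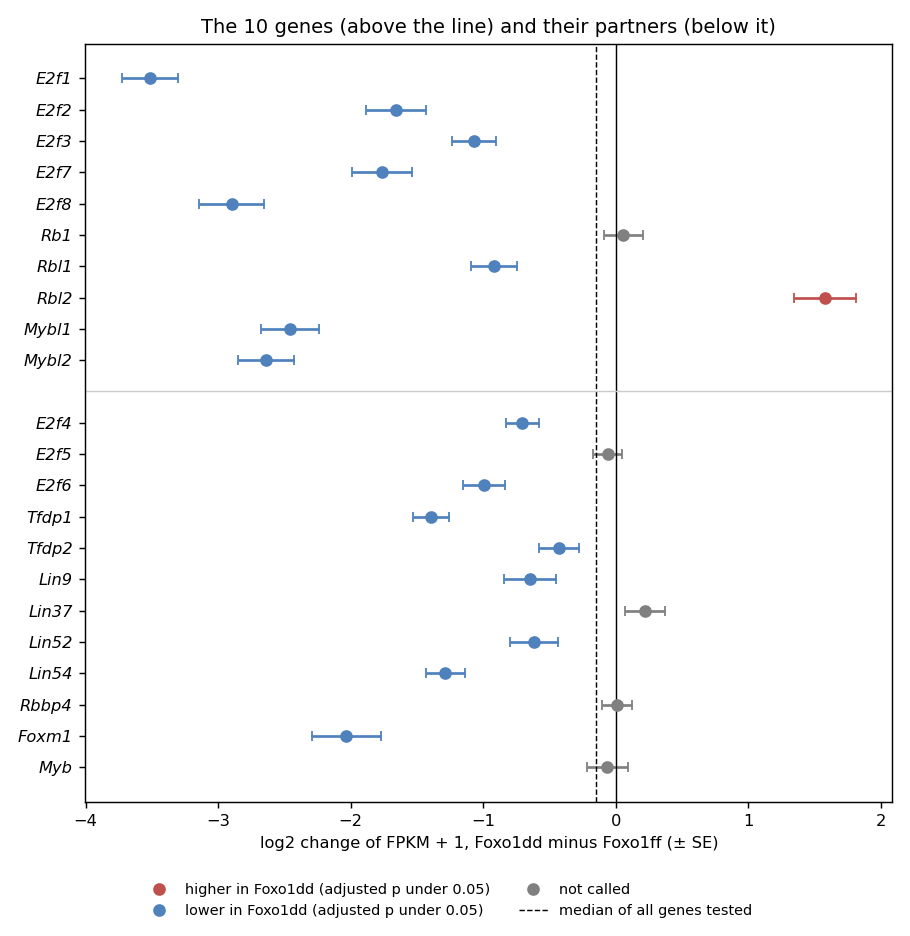
Log2 change of FPKM + 1, Foxo1dd minus Foxo1ff, with its limma SE (whiskers), for the 10 genes (top) and for the other E2F, DP, MuvB and MYB genes (bottom); blue and red mark genes called lower and higher, grey those not called, and the dashed line the median of all genes tested, -0.15. E2f1 has the most negative change of the genes shown (-3.52), and Rbl2 is the only gene marked higher (1.58).

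Among the partners of these factors, some fell and others were not called. Of 5 other E2F and DP genes, 0 rose and 4 fell, beside 22.2% of all genes tested called higher and 34.2% called lower. Tfdp1, which encodes the main DP partner, had 38.0, 29.2 and 32.2 FPKM in Foxo1dd, against 81.1, 97.3 and 86.9 FPKM in Foxo1ff (log2 change -1.39 ± 0.13, SE, n = 3 per group, limma adjusted p = 3.20e-05). E2f4, the chief E2F of DREAM, had 31.8, 29.1 and 31.0 FPKM in Foxo1dd, against 55.4, 52.9 and 44.0 FPKM in Foxo1ff, and E2f6, a repressor that does not bind pocket proteins, was 2.10-fold lower. E2f4 and Tfdp1 were more abundant per length than any of E2f1, E2f2 and E2f3 in every sample. E2f5, named after its values were seen, was not called, at 32.1 to 34.0 FPKM in Foxo1dd and 33.3 to 35.6 FPKM in Foxo1ff. The fall of Tfdp2 (log2 change -0.43, adjusted p = 0.0353) was lost in 10 of 14 alternatives, with adjusted p from 0.0176 to 0.122, among them leaving out any sample (0.0533 to 0.122).

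Of 6 MuvB genes and partners, 0 rose and 4 fell, beside 22.2% of all genes tested called higher and 34.2% called lower. Lin54, the DNA-binding subunit that reads the CHR element, had 3.23, 3.03 and 2.96 FPKM in Foxo1dd, against 8.32, 9.77 and 8.78 FPKM in Foxo1ff (log2 change -1.29 ± 0.15, SE, n = 3 per group, limma adjusted p = 8.70e-05). Foxm1, the forkhead factor that follows B-MYB on MuvB, had 0.724, 0.502 and 0.256 FPKM in Foxo1dd, against 3.42, 7.63 and 4.83 FPKM in Foxo1ff (log2 change -2.03, adjusted p = 0.000182). It passed the minimum for testing only through Foxo1ff. The falls of Lin9 and Lin52 (log2 changes -0.64 and -0.62, adjusted p = 0.0201 and 0.0182) were less firm. Lin9 lost its call without Foxo1ff replicate 2 (0.0953) or 3 (0.0578) and with no filter (0.0537), over a range of 0.0154 to 0.0953. Lin52 lost it without Foxo1dd replicate 1 (0.0636) or 3 (0.0622), without Foxo1ff replicate 2 (0.0606) or 3 (0.0551) and under median-of-ratios scaling (0.0673) or quantile normalization (0.0835), over a range of 0.00130 to 0.0835. The other two genes, Rbbp4 and Lin37, named after their values were seen, were not called (adjusted p = 0.956 and 0.234).

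Upstream of the pocket proteins, 7 of 9 cyclins and cyclin-dependent kinases fell and 1 rose. Among all genes tested, 34.2% were called lower and 22.2% higher, the shares to set beside each count in this paragraph. Some genes, such as Ccne1, Ccna2, Ccnf and Cdkn1a, averaged below 1 FPKM in Foxo1dd and passed the minimum only through Foxo1ff. A call of such a gene could hardly be other than lower. Ccnd1, the cyclin D1 gene, had a mean of 3.35 ± 1.31 FPKM in Foxo1dd and 119 ± 8.57 FPKM in Foxo1ff (SD, n = 3 each). Ccne1 and Ccna2, the cyclins of S-phase entry and progress, were 42.7-fold and 41.7-fold lower. Ccnd3, another D-type cyclin, rose to 28.4, 31.1 and 29.5 FPKM in Foxo1dd, against 18.8, 17.5 and 17.4 FPKM in Foxo1ff. Of 7 inhibitors of these kinases, 2 rose and 4 fell. Cdkn1c (p57) had 24.7, 39.0 and 104 FPKM in Foxo1dd, against 1.99, 3.53 and 3.53 FPKM in Foxo1ff, and its Foxo1dd samples spread widely. Cdkn1a (p21), Cdkn2b (p15) and Cdkn2c (p18) had log2 changes of -4.37, -2.33 and -1.23. The other fall was Cdkn2a, named after its values were seen. It had 0.023, 0 and 0.559 FPKM in Foxo1dd, against 0.494, 2.01 and 3.33 FPKM in Foxo1ff, with overlapping groups. The list had 3 falls with no filter, and without Foxo1dd replicate 1 or 2 or Foxo1ff replicate 2 or 3. The rise of Cdkn1b (p27), 0.40 with adjusted p = 0.0296, was lost under the replicate block (0.0600) and without Foxo1dd replicate 1 (0.0883) or 3 (0.0817) or Foxo1ff replicate 1 (0.0699) or 3 (0.105), over a range of 0.00270 to 0.105. Of 6 chromatin partners of pocket proteins, 1 rose and 1 fell, neither count above its share over all genes. They were Hdac1, a histone deacetylase (2.54-fold higher), and Suv39h1, a histone methyltransferase (1.84-fold lower). Of 5 regulators of ubiquitin ligases that act on E2Fs and cyclins, 0 rose and 3 fell, with log2 changes of -2.47 for Ccnf, -2.03 for Fbxo5 and -1.45 for Skp2.

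Known targets of DNA replication and late targets of MuvB were lower almost throughout, beside 34.2% of all genes tested called lower. Known E2F1 targets of apoptosis went in both directions. Of 24 E2F targets of DNA replication, 0 rose and 24 fell, with a median log2 change of -2.21, beside -0.15 for all genes tested. Uhrf1, which guides DNA methylation at replication forks, had 1.68, 1.67 and 1.63 FPKM in Foxo1dd, against 30.4, 46.4 and 36.3 FPKM in Foxo1ff. Cdt1, which loads the helicase onto replication origins, had 2.96, 4.04 and 3.42 FPKM in Foxo1dd, against 30.7, 42.5 and 29.1 FPKM in Foxo1ff. The helicase genes Mcm6 and Mcm5 had log2 changes of -4.43 and -3.70. Of 20 late targets of MuvB with B-MYB and FOXM1, 0 rose and 19 fell, with a median of -2.79. Most of these late targets averaged below 1 FPKM in Foxo1dd and passed the minimum only through Foxo1ff. So did some replication targets. A call of such a gene could hardly be other than lower, which limits both counts and medians beside those of all genes. Mki67, the gene of the Ki-67 antigen of dividing cells, had 0.185, 0.115 and 0.206 FPKM in Foxo1dd, against 10.2, 21.7 and 12.5 FPKM in Foxo1ff. Cdk1, Prc1 and Aurkb, which drive mitosis, had log2 changes of -3.83, -3.39 and -3.46. Top2a, singled out here because of its values, was not called, at 20.3 to 61.4 FPKM in Foxo1dd and 20.5 to 45.6 FPKM in Foxo1ff. Of 7 tested E2F1 targets of apoptosis, 2 rose and 3 fell, with a median of -0.21. Both counts lay near the shares over all genes tested, 22.2% called higher and 34.2% called lower. They are not read as a result about this list. Casp8, an initiator caspase, had a log2 change of 0.53, and Bcl2l11 and Pmaip1, which promote cell death, had -1.74 and -1.55.

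**Figure D4:**
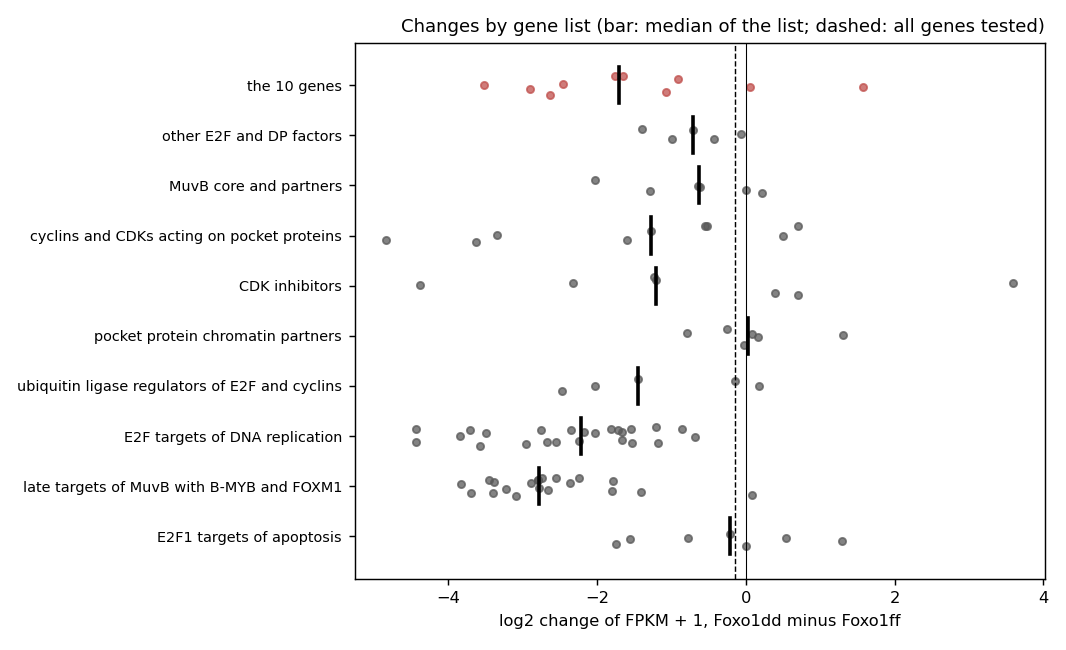
Log2 change of FPKM + 1, Foxo1dd minus Foxo1ff, of each tested gene (points, spread vertically at random) in the 10 genes and in lists of partners, regulators and targets; thick bars are list medians and the dashed line is the median of all genes tested, -0.15. The lists of replication targets and late targets have the lowest medians, -2.21 and -2.79, and the kinase inhibitors spread from -4.37 to 3.59.

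Within the Foxo1ff group the same sample tended to be low. Replicate 1 was the lowest Foxo1ff sample for 7 of the 8 genes that fell, for 22 of the 24 replication targets and for 20 of the 20 late targets, but for 33.6% of all genes tested. Replicate 2 was the highest for 6 of the 8 genes, for 22 of the replication targets and for 20 of the late targets, and for 33.7% of all genes tested. No test was made of this pattern. Without Foxo1ff replicate 1, and likewise without any other sample, 8 of the 10 genes were still called lower and 1 higher. Over the 6 samples, the genes whose centred profile lay nearest to that of E2f1 were Folr1, a folate receptor, Tmem52b and Mcm5, at Euclidean distances of 0.193, 0.283 and 0.393 on the log2 scale. Those nearest to Rb1, the gene with the smallest change, were Dnttip1, 4833420G17Rik and Eif3e, at 0.0922, 0.0979 and 0.0981.

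Markers of cells that a captured strip could hold are given beside these results, and their part in them was not tested. The 8 epithelial markers, luminal or general, included 2 that rose (Krt8 and Krt19) and 2 that fell (Epcam and Cdh1), and summed to 2805 to 3295 FPKM in Foxo1dd and 2116 to 2768 FPKM in Foxo1ff. Leukocyte markers summed to 76.7 to 94.0 FPKM in Foxo1dd and 42.9 to 87.3 FPKM in Foxo1ff, and of the 7 that were tested 2 rose and 4 fell. Those that rose were Laptm5 and Cd68, and those that fell Ptprc, Lyz2, Csf1r and C1qa. Laptm5 supplied most of the Foxo1dd sum at 53.2 to 70.7 FPKM, against 2.73 to 5.78 FPKM in Foxo1ff. Lyz2 had 7.98, 5.23 and 9.32 FPKM in Foxo1dd, against 54.2, 61.3 and 14.8 FPKM in Foxo1ff. Ptprc, the pan-leukocyte marker, had 0.252, 0.372 and 0.258 FPKM in Foxo1dd, against 3.75, 4.06 and 2.96 FPKM in Foxo1ff. Of 5 glandular markers the 3 tested fell, with sums of 0.463 to 1.87 FPKM in Foxo1dd and 51.7 to 210 FPKM in Foxo1ff. Spink1 made up most of the Foxo1ff sums but not of the Foxo1dd sums. Their defining factor Foxa2 stayed below the minimum in both groups, at 0.399 to 0.908 FPKM in Foxo1dd and 0.643 to 1.36 FPKM in Foxo1ff. Of 8 stromal markers 6 were tested, of which 1 rose and 0 fell, with sums of 11.2 to 19.9 FPKM in Foxo1dd and 11.1 to 15.5 FPKM in Foxo1ff. Smooth muscle markers summed to 3.77 to 4.76 FPKM in Foxo1dd and 2.98 to 5.20 FPKM in Foxo1ff, and 0 of the 2 tested were called. Endothelial markers summed to 0.851 to 2.80 FPKM in Foxo1dd and 0.640 to 0.732 FPKM in Foxo1ff, and none reached the minimum. Of 5 erythroid markers 4 were listed at 0 in every sample, and the reason was not tested. The list summed to 0.21 to 0.697 FPKM in Foxo1dd and 0.21 to 0.313 FPKM in Foxo1ff, all of it from Alas2. Foxo1dd replicate 2 had 13995 genes above 0 and the other 5 samples 15474 to 16062. Without it, the counts of the 10 genes were again 8 lower and 1 higher. Summed FPKM over all genes was 552190 to 564628 in Foxo1dd and 613186 to 667499 in Foxo1ff. Rn45s, a ribosomal RNA precursor, had 30479, 40296 and 30721 FPKM in Foxo1dd, against 23715, 23783 and 31304 FPKM in Foxo1ff. The groups did not overlap in the sum and overlapped in Rn45s, and the part of either in the results was not tested.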

How the data were processed

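The deposited table gives FPKM values, which the authors computed before deposit; the submitters' processing notes list DESeq2 1.12.4, edgeR 3.28.0, the Subread program featureCounts 1.5.0-p1, STAR 2.5.2b and build mm10, with no role or order. Which annotation, lengths and strand setting were used is not given in the sources used here. FPKM values are not counts, so log2(FPKM + 1) was fitted with limma 3.58.1 in R 4.3.3 (eBayes with a trend, genotype as the only term, Benjamini-Hochberg adjustment) on 11427 genes averaging 1 FPKM or more, leaving out 13537. A call is an adjusted p under 0.05. The fit was also run on simulated data with the same spread for every gene and changes only in genes of higher level. These data differ in both respects, so no conclusion is drawn from that run. Ratios between genes had 0.1 FPKM added to each term. Gene positions and overlaps are from GENCODE M21, and promoter sequences from RefSeq (GRCm38.p6).

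The value of 1 read was taken as the largest step at which 80% of short RNA values below 12 reads were whole within 0.05 read. It was 0.0101 to 0.0135 FPKM for a gene of 1 kb, or a divisor of about 74000000 to 98600000 reads per sample, least certain for Foxo1dd replicate 2 (26 genes). Read numbers in the text use merged GENCODE exon lengths and are approximate.

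The 10 genes, the lists and the tests were chosen with earlier results of these data known. Named from each list were up to 4 tested genes of smallest p, plus any called against the list's majority; other names are said to be chosen later. A gene that this rule names is not reported here. Likeness used log2(FPKM + 1) centred on each gene's mean.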

Additional observations from a re-analysis of the deposited data

How the results depend on the processing

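The 8 falls and the rise of Rbl2 kept their direction and call in every alternative in which the gene was tested: each sample left out in turn, the replicate block, robust or untrended eBayes, quantile or median-of-ratios scaling, 0.1 or 0.5 FPKM added, and either no filter or a stricter one. With a minimum mean of 5 FPKM, fewer genes were tested, and 2 of the 10 genes, 2 kinase inhibitors, 1 ubiquitin ligase regulator and 10 late targets were called lower. The MuvB list had 2 to 4 falls when a sample was left out, and the kinase inhibitor list 1 to 2 rises and 3 to 4 falls. Under median-of-ratios scaling and quantile normalization 2 chromatin partners rose, the added gene being Hdac2 (adjusted p = 0.0458 and 0.0320, over a range of 0.0320 to 0.495); the cause was not tested. Rb1 ranged from -0.0082 (without Foxo1ff replicate 1) to 0.135 (without Foxo1dd replicate 2) when a sample was left out, and Myb turned to 0.033 under median-of-ratios scaling and 0.080 under quantile normalization. With the replicate number as a block, 2417 genes were higher and 3724 lower, and 1 kinase inhibitor rose; deviations of same-numbered samples correlated at 0.123, 0.107 and -0.133, so the numbers are not taken to pair the samples. The difference in the log2 ratio of E2f1 to E2f3 was -2.44 with 1 FPKM added and -5.11 with none, and that of the atypical E2Fs to the activators was -0.74 and -2.41. The ratio of Mybl2 to Mybl1 could not be computed with none added, as Mybl2 was listed at 0 in a sample. With 3 samples per group, values near 0 in Foxo1dd rest on few reads, and their fold changes are the least precise.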
